A study of Mus musculus with 18 samples.

Results

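The simple epithelial keratins Krt7, Krt8, Krt18 and Krt19 were followed through the first week of embryoid body formation. They were chosen by gene name and are 4 of the 14344 genes that had a named probe on both array products used. Keratins are the intermediate filaments of epithelial cells and form only as pairs of an acidic type I and a basic type II chain. Krt18 and Krt19 are type I chains, and Krt7 and Krt8 are type II chains. Krt8 pairs mainly with Krt18, and this pair is the earliest keratin of the mouse embryo, appearing in trophectoderm and later in primitive endoderm and other single-layered epithelia. Krt7 and Krt19 join them in trophectoderm and in many ducts and linings.

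The embryonic stem cells (ESC) were the mouse line MES3, derived from a C57BLxCBA embryo and grown with the cytokine LIF on mouse embryonic fibroblasts made non-dividing with mitomycin C. Embryoid bodies (EB), floating aggregates that differentiate without further treatment, came from pieces of MES3 colonies moved to low-adhesion plates in the same medium lacking LIF and b-mercaptoethanol, and were taken after 3 and 7 days. Adult samples were labelled only as adult tissue cells, with no organ, strain or age. RNA of 10 samples was hybridised to 18 single-colour arrays. The UniSet Mouse 20K I product, here the 12-array product, held ESC replicate 1, replicates 1 and 2 of EB at each day and adult replicates 1 and 2, with 1 array for an adult sample and 2 for the others. Mouse Whole Genome, here the 6-array product, held ESC replicate 2 and the EB replicates numbered 3, with 2 arrays a sample. All ESC and EB samples stem from 1 line, the ESC samples can contain feeder RNA, and nothing in the labels tells if replicates came from separate cultures, so p-values measure only the spread between these samples.

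Of the gene probes, the share above background was 27.7 to 36.2% for ESC and EB of the 12-array product, 52.6 to 57.8% for adult tissue and 67.6 to 78.0% for the 6-array product. The number of arrays limits the precision of every value. Levels are log2 intensities normalized within a product, so a level is set only against levels of the same probe on the same product. In bulk RNA, a lower share of cells that make a keratin and less keratin RNA per cell cannot be told apart.

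Each keratin had a single probe, and the same 4 probes were on both products. They were GE41806 for Krt7, GE41579 for Krt8, GE35663 for Krt18 and GE34707 for Krt19. The annotation of the 6-array product also lists Spcs2, a signal peptidase subunit, beside Krt18 for GE35663. The best-detected probe of Spcs2 itself read 8.68 to 8.86 in the 12-array ESC and EB samples. On the 6-array product it read 11.04 in ESC, 11.56 in 3-day EB and 11.32 in 7-day EB. Another Spcs2 probe was above background on none of the 10 ESC and EB arrays of the 12-array product, and read 6.47, 6.12 and 5.91 on the other. Whether Spcs2 RNA adds to the signal of GE35663 was not tested.

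In the RefSeq annotation Krt7, Krt8 and Krt18 lie on chromosome 15, with the type II genes, and Krt19 lies on chromosome 11, with the other type I genes. Krt8 and Krt18 are neighbours, with 2 genes between them and 0 of these protein-coding. Their promoters are shown because their levels moved alike on the 6-array product, with that of Krt7 for contrast. Each runs from 250 bases before the annotated start to 30 after it, 5′ to 3′ on the gene's strand, from RefSeq's GRCm38.p6. Krt8 is at chr15:102004313-102004592 on the minus strand, Krt18 at chr15:102027966-102028245 on the plus strand and Krt7 at chr15:101412153-101412432 on the plus strand. Capitals mark 3 motifs on either strand, which are TATAAA of many core promoters, GGGCGG or GC box, and GCCNNNGGC, the letters bound by AP-2 factors.
Krt8: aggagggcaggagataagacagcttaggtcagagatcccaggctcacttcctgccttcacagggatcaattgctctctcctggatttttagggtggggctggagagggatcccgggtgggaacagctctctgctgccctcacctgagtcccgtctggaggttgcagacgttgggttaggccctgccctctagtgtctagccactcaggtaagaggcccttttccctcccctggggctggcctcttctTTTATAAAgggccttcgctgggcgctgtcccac
Krt18: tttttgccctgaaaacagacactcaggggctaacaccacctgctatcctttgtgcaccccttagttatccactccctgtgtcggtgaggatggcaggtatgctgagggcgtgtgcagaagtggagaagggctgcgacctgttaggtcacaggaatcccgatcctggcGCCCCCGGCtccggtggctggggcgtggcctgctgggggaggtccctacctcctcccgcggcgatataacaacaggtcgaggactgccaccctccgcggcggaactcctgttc
Krt7: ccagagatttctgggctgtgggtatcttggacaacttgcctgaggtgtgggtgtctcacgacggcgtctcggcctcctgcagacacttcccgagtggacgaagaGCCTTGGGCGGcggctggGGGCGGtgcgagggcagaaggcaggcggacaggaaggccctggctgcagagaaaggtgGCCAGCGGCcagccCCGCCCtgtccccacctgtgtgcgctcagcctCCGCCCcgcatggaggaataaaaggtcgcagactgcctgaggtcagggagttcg
The Krt8 window held TATAAA on both strands in an overlapping run across the annotated start, and no GC box or AP-2 letters. The Krt18 window held the AP-2 letters 1 time and neither other motif. The Krt7 window held 4 GC boxes and 2 AP-2 matches, 1 of them overlapping a GC box, and no TATAAA. Over all 32851 mouse promoter windows of this length, 13.1% held TATAAA, 34.7% a GC box and 15.4% the AP-2 letters. TGANTCA, the letters bound by AP-1, was in none of the 3 windows and in 7.46% of all windows. The motifs are matches of letters and nothing more.

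Krt7, the type II keratin of ducts and glandular linings, was higher in EB of both days than in ESC, and higher at 7 than at 3 days in each product. On the 12-array product its level was 5.42 in ESC replicate 1. The 3-day EB samples read 6.64 and 6.71. The 7-day EB samples read 8.09 and 7.16. The 3-day samples lay close together while the 7-day samples lay almost a log2 unit apart. ESC replicate 2, on the 6-array product, read 8.0, its 2 arrays at 7.63 and 8.37. The 3-day EB sample read 9.39 from 1 array, because the spot on its other array was marked as contaminated and set aside, and the 7-day sample read 10.58. The order ESC, 3-day EB, 7-day EB was therefore the same on both products.

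Against ESC, Krt7 rose by a log2 of 2.36 ± 0.28 (SE) at 7 days, 5.13-fold (limma adjusted p = 0.005451, 3 EB and 2 ESC samples). The rise was in 3 of 3 samples, by 2.67, 1.74 and 2.58 from the ESC sample of the same product. At 3 days it rose by 1.33 ± 0.28, 2.52-fold (limma adjusted p = 0.04995), with samples at 1.22, 1.29 and 1.39. The 3-day call sits at the threshold of 0.05 and remained in 1 of the 8 fits that left out a sample, the one without 7-day EB replicate 2. The 7-day call was lost without ESC replicate 1 (limma adjusted p = 0.0733), without ESC replicate 2 (0.0681) and on the 12-array product alone (0.168).

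Krt18, the type I partner of Krt8, read higher in every EB sample than in the ESC sample of its product, and the EB replicates differed widely. On the 12-array product ESC replicate 1 read 7.80. Replicate 1 read 10.35 at 3 days and 10.39 at 7 days. Replicate 2 read 8.78 at 3 days and 8.96 at 7 days. The samples thus fell together by replicate number and not by day, over a log2 unit apart. ESC replicate 2, on the other product, read 8.73, with the 3-day EB sample at 12.36 and the 7-day sample at 12.26. The ESC value there averages 2 arrays that disagreed, at 9.75 and 7.72, with raw intensities of 810.6 and 124.5, whereas the 2 arrays of the 3-day EB sample read 12.26 and 12.46.

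In the fit over both products, Krt18 differed from ESC by a log2 of 2.60 ± 0.62 (SE) at 3 days, 6.05-fold, and this did not pass (limma adjusted p = 0.07634). At 7 days the difference was 2.64 ± 0.62, 6.23-fold, and it also did not pass (limma adjusted p = 0.05243). Single EB samples ranged from 1.97-fold in 3-day replicate 2 to 12.4-fold in 3-day replicate 3 above the ESC sample of their product. Without ESC replicate 1 the differences were 3.56 and 3.60, and without ESC replicate 2 they were 1.80 and 1.84, with none passing. Both days passed without 3-day EB replicate 2, at 3.09 (limma adjusted p = 0.0227) and 2.59 (0.0283), and without 7-day EB replicate 2, at 2.56 (0.0465) and 3.06 (0.0256). With the first array of ESC replicate 2 set aside the 7-day difference was 3.10 (limma adjusted p = 0.0658), and with the second set aside it was 2.18 (0.0702). Between 7 and 3 days the difference was 0.04 ± 0.55 (limma adjusted p = 0.9785).

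Krt19, a type I keratin that lacks the usual tail domain, had the same arrangement of samples. On the 12-array product ESC replicate 1 read 5.16. Replicate 1 read 7.90 at 3 days and 8.53 at 7 days. Replicate 2 read 5.92 at 3 days and 6.81 at 7 days. All 4 EB samples were above ESC, replicate 2 of 3 days by the least, and each replicate was higher at 7 than at 3 days. The other product gave 8.58 for ESC, 11.59 for 3-day EB and 11.67 for 7-day EB. Neither the 3-day difference of 2.28 ± 0.67 (4.86-fold, limma adjusted p = 0.1215) nor the 7-day difference of 2.81 ± 0.67 (7.03-fold, limma adjusted p = 0.05268) passed. Single samples ranged from 1.70-fold to 10.4-fold over ESC. The 3-day difference passed without 3-day EB replicate 2 (2.87, limma adjusted p = 0.0243). The 7-day difference passed when replicate 1 of 3-day EB was left out (2.85, limma adjusted p = 0.0493), when replicate 2 of that day was (2.75, 0.0187) and when replicate 2 of 7-day EB was (3.23, 0.0293).

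**Figure D1:**
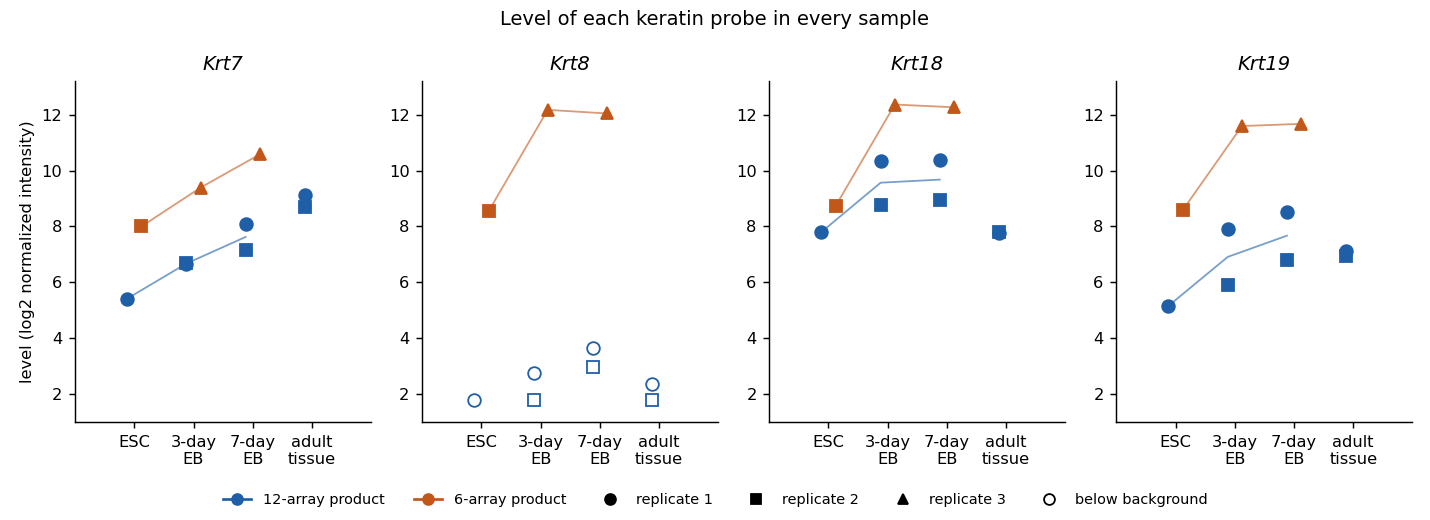
Level of each keratin probe in every sample, as log2 normalized intensity, for ESC, 3-day EB, 7-day EB and adult tissue. Colours are the 2 array products, shapes the replicates, open symbols samples with every array below background, and lines join group means of ESC and EB. Krt7 steps up at both days on both products, and Krt18 replicate 1 lies at 10.35 and 10.39 while replicate 2 lies at 8.78 and 8.96.

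Krt8, the type II partner of Krt18, was detected on 1 product only. On the 6-array product its probe read 8.54 in ESC replicate 2, 12.17 in the 3-day EB sample and 12.04 in the 7-day EB sample. The raw intensities were 327.5 and 242.4 on the ESC arrays, 5349 and 5766 on the 3-day arrays and 4417 and 4141 on the 7-day arrays. The EB samples were 12.4-fold and 11.2-fold above ESC, and the 2 arrays of each sample agreed far more closely than that. There was 1 sample a group, so the difference has no replicate check and no test. Krt18 on the same arrays was 12.4-fold and 11.5-fold above ESC.

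On the 6-array product Krt8, Krt18 and Krt19 were among the probes that differed most upward from ESC. Krt7 stood further down at 3 days, with 4.62% of probes at least as high. At 3 days 23 of 14542 detected probes, 0.158%, differed upward at least as much as Krt8, Krt8 included, and at 7 days 67 of 15248, 0.439%. For Krt18 the counts were 22 and 64, for Krt19 56 and 90, and for Krt7 672 and 156. Krt7 was therefore the only one of the 4 that stood nearer the top at 7 days than at 3 days. These ranks describe single samples.

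On the 12-array product the Krt8 probe was marked below background on all 12 arrays. Its raw intensity ran from 0.17 to 13.5, where the median negative control ran from 2.75 to 4.24. No fold can be given there, in EB or in adult tissue, and Krt8 entered none of the main fits. Of the 19758 probes on both products, 7072 were below background on every 12-array array, and 1891 of these were above it on every 6-array array. Only 2 of the 1891, Krt8 included, had a highest 6-array level at least that of Krt8. The probes of Krt7, Krt18 and Krt19 were above background on all 12. Why the Krt8 probe gave no signal on the 12-array product was not tested.

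**Figure D2:**
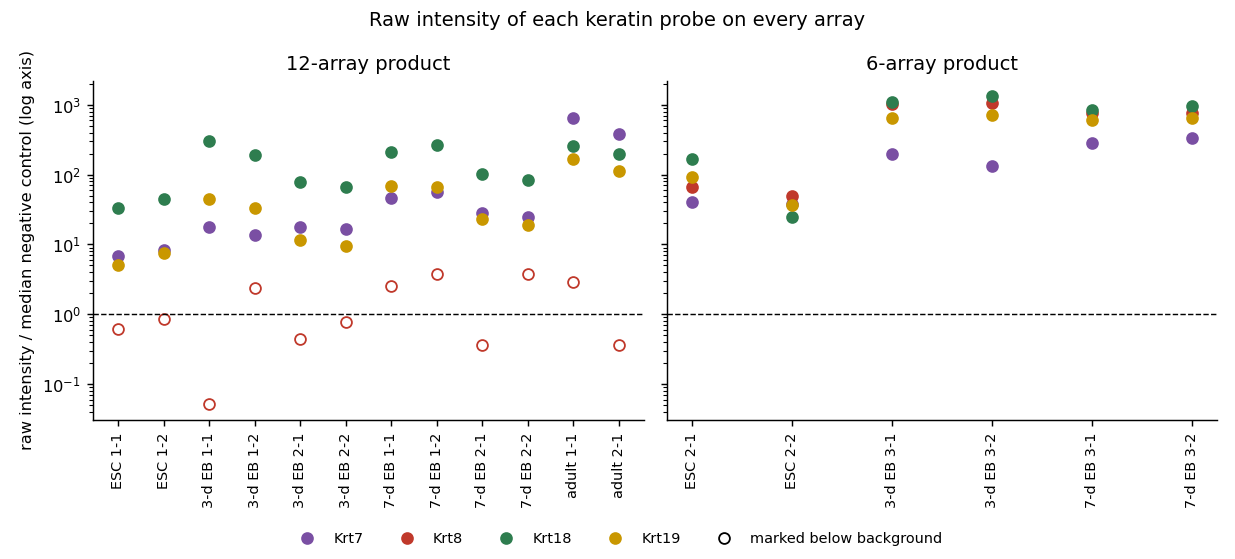
Raw intensity of each keratin probe over the median negative control of the same array, on a log axis, for the 12 arrays of one product (left) and the 6 of the other (right). Open symbols mark spots flagged below background, the dashed line is a ratio of 1, and heights of different probes are not comparable. Krt8 is below background on all 12 arrays at left, and at right goes from 67.2 and 48.7 in ESC to 1031 and 1051 in 3-day EB.

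Across the members, 1 of the 3 that could be tested, Krt7, was called higher at 3 days, where 0.73% of all 6301 genes tested were called higher. At 7 days again 1 of 3 was called, Krt7, against 1.83% of all genes. At an unadjusted p under 0.05, all 3 passed upward at each day, as did 9.82% of all genes at 3 days and 11.7% at 7 days. Their median log2 difference was 2.28 at 3 days and 2.64 at 7 days, where the medians of all genes were 0.05 and 0.04. All 3 were above ESC in each of the 3 EB samples of a day, as were 29.5% of all genes at 3 days and 24.4% at 7 days. Between 7-day and 3-day EB, 0 of 3 were called by limma, 1 was higher at an unadjusted p under 0.05, as were 7.14% of all genes, and 0.0476% of all genes were called higher. That 1 was Krt7, at 1.03 ± 0.25 (limma adjusted p = 0.187), with product means of 0.94 and 1.19. Without 7-day EB replicate 2 its difference was 1.32 and passed (limma adjusted p = 0.017). Krt19 differed by 0.53 ± 0.59 (limma adjusted p = 0.6918).

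**Figure D3:**
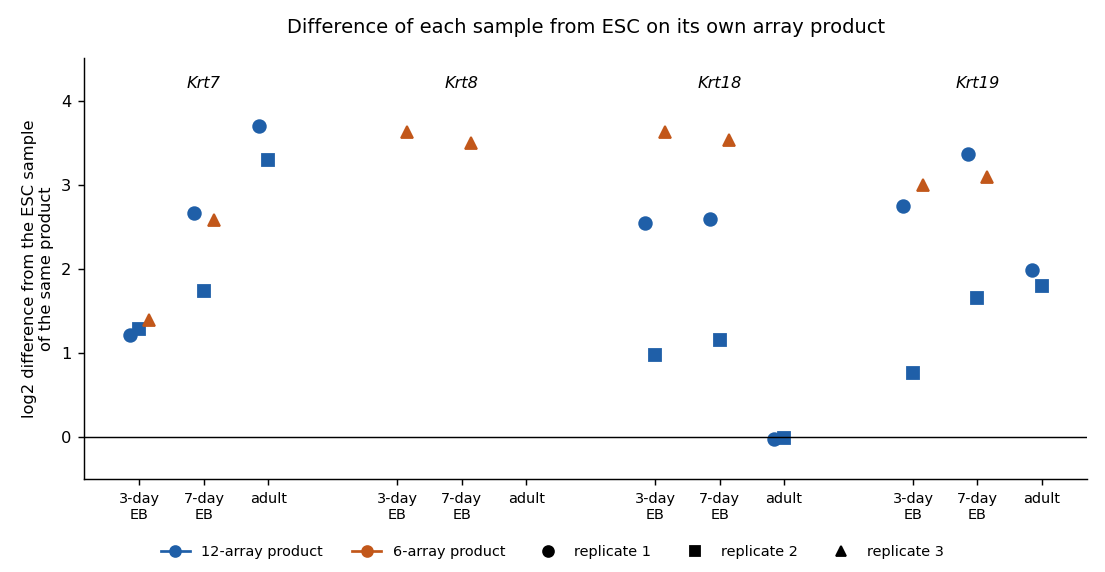
Log2 difference of each EB and adult sample from the ESC sample of the same array product. Colours are the products and shapes the replicates, and Krt8 is drawn for the 6-array product alone. Krt7 differences at 3 days lie between 1.22 and 1.39, while those of Krt18 lie between 0.98 and 3.63.

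Over the 8 ESC and EB samples, with each product centred on its own mean, Krt18 and Krt19 correlated at r = 0.97 (rho 0.833), Krt7 and Krt19 at r = 0.858 (rho 0.81), and Krt7 and Krt18 at r = 0.812 (rho 0.714). Krt19 stood 14th in likeness to Krt18 among 6300 other genes. The samples share products and hybridisations, so these values describe and test nothing. The genes most like Krt7 were Id2, an inhibitor of basic helix-loop-helix factors (r = 0.982), Galns, a lysosomal sulfatase (0.978), and Nuf2, a kinetochore protein (0.974). Id2 rose by 3.97 ± 0.49 at 7 days (limma adjusted p = 0.00568), whereas Galns and Nuf2 differed by 0.32 and 0.64 and did not pass.

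Among the genes most like Krt18 were the calpain gene Capn9 (r = 0.99) and Lsr, a protein of tricellular epithelial junctions (0.985). At 7 days Capn9 differed from ESC by 0.13 and Lsr by 0.83, and neither passed. Most like Krt19 were Cited1, a transcriptional co-regulator (r = 0.992), Pdlim3, a PDZ and LIM domain protein (0.991), and Glrx5, a mitochondrial glutaredoxin (0.99). Cited1 rose by 3.32 ± 0.76 at 7 days (limma adjusted p = 0.0485). Pdlim3 differed by 1.83 (limma adjusted p = 0.0554) and Glrx5 by 0.51, and these did not pass. A high correlation here went with changes of very different size.

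The other keratins mostly lay below background in the ESC and EB samples of the 12-array product. Of 45 genes listed, 26 had a named probe on both products. On the 10 ESC and EB arrays of the 12-array product, 3 of the 26 were above background throughout and 17 on no array, and on the 6-array product 13 were above it on all 6 arrays. Only 6 passed the filter for testing, and limma called 0 of them at either day, with 0 at an unadjusted p under 0.05. At 7 days their median was 0.13, with Krt84, a hair keratin, at 0.53 ± 0.24 and Krt31, also of hair, at 0.21 ± 0.18. Krt16 and Krt6a, keratins of stressed epidermis, were at 0.12 and 0.13, Krt42 at 0.01 and Krt222 at -0.08. Krt5 and Krt14, the pair of basal stratified epithelium, were above background on none of those 10 arrays, nor was Krt10 of differentiating epidermis.

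Among the other intermediate filaments, Des, the muscle filament desmin, rose by 2.22 ± 0.30 at 7 days (limma adjusted p = 0.00874), and it was the only 1 of 6 tested that was called. At 3 days 0 of 6 were called and 2 had an unadjusted p under 0.05. Des was above background on only 4 of the ESC and EB arrays of the 12-array product. Its level in ESC replicate 1 was 2.33, near background, so the filter favoured a rise and its size there is uncertain. On the 6-array product, above background throughout, Des read 8.63 in ESC, 10.38 at 3 days and 10.41 at 7 days. Vim, the filament vimentin of mesenchymal cells and fibroblasts, read 10.42 in ESC replicate 1, 6.71 and 9.25 at 3 days and 9.30 and 6.92 at 7 days. Its levels were 13.06, 9.88 and 11.90 on the 6-array product. It was lower in each EB sample than in ESC, by 1.90 ± 0.90 at 7 days, without passing (limma adjusted p = 0.258).

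Genes that tie keratins to junctions were mostly below background on the 12-array product, so few were tested. Of 16 desmosome and linker genes, 3 were tested and limma called 0, with 1 at an unadjusted p under 0.05 at 7 days. That was the plakophilin Pkp2, at 0.95 ± 0.36 (limma adjusted p = 0.17). Dsp, Jup, Dsg2 and Dsc2, which encode desmoplakin, plakoglobin, desmoglein 2 and desmocollin 2, were above background on none of the 10 ESC and EB arrays of the 12-array product. The 6-array product had 9 to 12 of 13 such genes above background in a sample, with no test. Jup read 8.41 in ESC, 7.17 in 3-day EB and 9.14 in 7-day EB there, and Dsg2 read 5.05, 5.16 and 6.32. Of 29 regulators of simple epithelial genes, 5 were tested and 0 were called by limma, none with an unadjusted p under 0.05. Klf5 was at 0.16 ± 0.30, Klf4 at -0.43 ± 0.20 and Grhl2 at -0.53 ± 0.31 at 7 days. On the 6-array product, where 19 to 20 of 24 regulators were above background, Klf5 read 9.79 in ESC, 10.21 at 3 days and 10.41 at 7 days, and Grhl2 read 9.48, 8.72 and 8.53.

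Markers of cell types that could carry the keratins moved as follows. Of 9 tested epithelium genes, the claudins Cldn4 and Cldn7 were called higher at 3 days, as were 0.73% of all genes. Cldn4 rose by 1.37 ± 0.29, at the threshold (limma adjusted p = 0.05 as rounded), and Cldn7 by 1.27 ± 0.25 (limma adjusted p = 0.0423). Cldn7 was the only 1 called at 7 days, at 1.28 ± 0.25 (limma adjusted p = 0.0319), where 1.83% of all genes were called higher. With arrays centred on their median, 0 of the 9 were called at either day. Cdh1, which encodes E-cadherin, differed from ESC by 0.37 ± 0.34 and 0.08 ± 0.34 at the 2 days and did not pass. The summed level of the epithelium list, 12 genes, was 1183 in ESC replicate 1 and 1570 to 1983 in the EB samples of the 12-array product, and 18950 in ESC and 25410 and 21770 in EB on the 6-array product.

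Of 7 tested visceral endoderm genes, Apoa1 and Fgb rose at 7 days, by 4.87 ± 0.80 (limma adjusted p = 0.017) and 4.61 ± 0.74 (0.0162). Of all genes 1.83% were called higher at that day. At 3 days 0 were called, where 0.73% of all genes were called higher. At that day 4 were higher at an unadjusted p under 0.05, as were 9.82% of all genes. With median centring 4 rose at 7 days, Ttr and Rbp4 included. On the 12-array product Apoa1, Fgb and Ttr were above background on only 6, 5 and 6 of the ESC and EB arrays. Their levels in ESC replicate 1 were 2.3, 2.05 and 2.41, near background, so the filter favoured a rise and its size there is uncertain. On the 6-array product, above background throughout, Apoa1 read 6.18 in ESC and 10.97 at 7 days, and Fgb 5.89 and 10.57. The summed level of this list, 14 genes, was 190.1 in ESC replicate 1. In replicate 1 it was 529.4 at 3 days and 1864 at 7 days, and in replicate 2 it was 184 and 346.2. Replicate 2 was thus the lower of the pair at each day, as it was for Krt18 and Krt19. Krt7 had that order at 7 days but not at 3 days, where replicates 1 and 2 read 6.64 and 6.71. Among the other cell type lists only parietal endoderm had it at both days. The share of all genes with that order was not counted. Replicate 2 was the higher at both days for the pluripotent cell list, at 6763 against 4636 and 8378 against 5031. It was also for mesothelium, where 1 of 4 genes was above background in these samples. The order changed between the days for the epithelium, trophectoderm and feeder fibroblast lists. The sum on the 6-array product was 2243 in ESC, 6605 at 3 days and 17950 at 7 days, where Krt18 read 12.36 and 12.26. The part of visceral endoderm in the keratin levels was not tested.

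Trophectoderm was covered by 9 genes, of which 1 was tested and not called. Its sum was 91.9 in ESC replicate 1, 99.3 to 114.5 in 3-day and 119.1 to 166.3 in 7-day EB on the 12-array product, where Cdx2, Eomes and Elf5 were above background on no array. It was 557.8, 771.8 and 1658 on the 6-array product, with Gata3 at 6.08, 6.91 and 9.19. Parietal endoderm had 8 tested genes, of which the nidogen gene Nid1 fell by 1.73 ± 0.34 (limma adjusted p = 0.0325) at 7 days and none rose. Its sum was 2767 in ESC replicate 1, 3719 and 1403 in replicates 1 and 2 of 3-day EB and 3627 and 2622 in those of 7-day EB. Replicate 2 was thus the lower here too. Most of each of these sums was the 1 gene Sparc. It read 11.24 and 9.76 in replicates 1 and 2 at 3 days and 11.12 and 10.59 at 7 days. On the 6-array product the sum of the list was 13170, 20310 and 19080. Mesothelium had 1 tested gene, which was not called, and Msln was above background on no array of the 12-array product. Its sum was 277.2 in ESC replicate 1 and 171.5 to 250.5 in EB there, and 512.3, 555.0 and 522.6 on the 6-array product. In the 12-array ESC and EB samples 1 of its 4 genes was above background, Upk1b, at 8.04 in ESC replicate 1. The sum there therefore describes mostly that gene.

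The feeder fibroblast genes were lower in EB. Of 16 tested, 8 fell at 3 days and 8 at 7 days, with medians of -3.40 and -3.24, where 2.25% and 3.35% of all genes were called lower. Col6a1, Col6a3, Thbs2 and Thy1 were above background on only 2 of the 10 ESC and EB arrays of the 12-array product. They entered the test through ESC, where they were highest, so the filter set the direction of their falls. The count of calls is therefore no test of the list. With median centring 9 and 11 fell. The collagen gene Col6a2 fell by 4.2 ± 0.38 at 7 days (limma adjusted p = 0.00323). Their sum was 4441 in ESC replicate 1 against 241.5 to 1043 in EB, and 40700 against 5627 and 11360 on the 6-array product. The level of the feeder genes thus differed between the compared groups, and its part in the keratin differences was not tested. Of 8 tested pluripotent cell genes, Sall4 rose by 1.22 ± 0.18 at 7 days (limma adjusted p = 0.0121), 0 were called at 3 days, with 1 at an unadjusted p under 0.05, and Pou5f1 differed by -0.72 ± 0.32 at both days without passing.

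**Figure D4:**
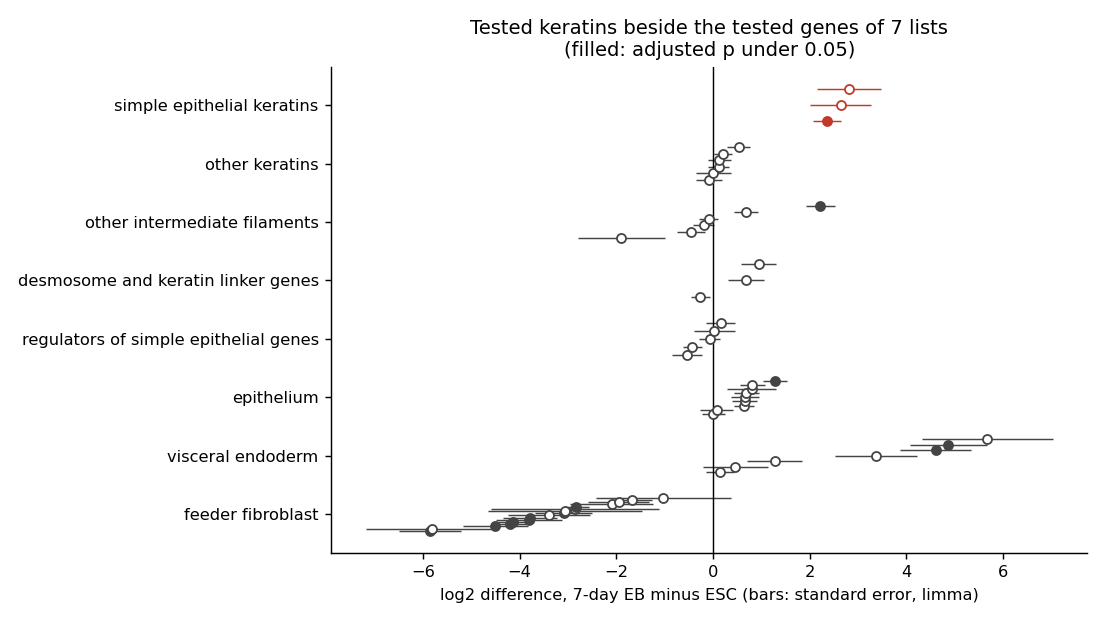
Log2 difference of 7-day EB from ESC for the 3 tested simple epithelial keratins (red) and the tested genes of 7 lists, each point a gene with its standard error from limma. Filled points have an adjusted p under 0.05. The keratins lie at 2.36, 2.64 and 2.81, the 6 other keratins between -0.08 and 0.53.

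The place of adult tissue among the samples differed from keratin to keratin. Krt7 was highest there, at 9.12 and 8.71, above all ESC and EB samples of the 12-array product. Krt18 was at 7.78 and 7.79, next to ESC at 7.80 and below all 4 EB samples. Krt19 was at 7.14 and 6.95, within the range of the EB samples and above ESC at 5.16. Krt8 was below background in both. The adult arrays were scanned on another day than all others of the product, so tissue and scan cannot be told apart. For Krt7 the levels on the 12-array product rose in the order ESC, 3-day EB, 7-day EB, adult tissue. The share of all genes with that order was not counted. Of its neighbouring steps, 3-day EB against ESC passed in the fit over both products but not on the 12-array product alone (limma adjusted p = 0.48), 3-day against 7-day EB did not pass, and 7-day EB against adult tissue passed. For Krt18 the test of adult tissue against ESC, with 1 ESC sample, did not pass, nor did that between the EB days. For Krt19 no pair of neighbours in the order passed the test.

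Against ESC, Krt7 was higher in adult tissue by 3.49 ± 0.43, 11.3-fold (limma adjusted p = 0.0006572), 1 of 3 members, where 26.7% of 10081 genes were called higher. There was 1 ESC sample, which is assumed to vary like the others. Krt19 differed by 1.89 ± 0.89 (limma adjusted p = 0.1138), and passed when replicate 1 or replicate 2 of 3-day EB was left out (0.0471 and 0.047) and, at 2.48, with median centring (0.0388). Krt18 differed by -0.02 ± 0.74 (limma adjusted p = 0.986). Against 3-day EB, Krt7 was higher by 2.24 ± 0.35 (limma adjusted p = 0.00122), where 31.5% of genes were called higher, and against 7-day EB by 1.29 ± 0.35 (0.01455), where 32.3% were. The last call was lost without 7-day EB replicate 2 (0.83, limma adjusted p = 0.0762) and without adult replicate 1 (1.09, 0.0988). With arrays centred on their median the 3 differences were larger, at 4.08, 3.02 and 2.06, and all passed.

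Krt18 was lower in adult tissue than in 3-day EB by a log2 difference of -1.78 ± 0.60 (limma adjusted p = 0.03532), where 30.5% of genes were called lower, and than in 7-day EB by -1.90 ± 0.60 (0.02791), where 29.5% were. Each call remained in 4 of the 7 fits that left out a sample. The 3-day difference was -1.0 without 3-day EB replicate 1 (limma adjusted p = 0.176) and -2.56 without replicate 2, and the 7-day one -1.18 without 7-day EB replicate 1 (0.14) and -2.61 without replicate 2. Without adult replicate 1 or 2 neither passed, at 0.152 and 0.159 for 3 days and 0.134 and 0.14 for 7 days. With arrays centred on their median instead, which moves the median of all genes from 0.00 to 0.48 and from 0.03 to 0.49, these became -1.14 (limma adjusted p = 0.143) and -1.08 (0.161) and did not pass. On that scaling Krt18 also read above ESC, by 0.58. Krt19 differed from 3-day and 7-day EB by 0.14 and -0.62 and did not pass. With 1 of 3 members called higher and 1 of 3 lower than EB, where about as large a share of all genes was called each way, these counts are no result about the keratins as a set.

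Keratins of stratified epithelium were also measured in adult tissue. Of 14 other keratins tested, 5 were called higher than in ESC, not far from the 26.7% of all genes called higher and so no result about the list, among them Krt5 by 5.31 ± 0.73 (limma adjusted p = 0.00107) and Krt14 by 3.79 ± 0.33 (0.000162), with Krt13, Krt16 and Krt23. With median centring 5 were again called higher. Krt5, Krt14, Krt13 and Krt23 were above background in adult tissue and on no ESC or EB array of the 12-array product. They entered the test through adult tissue, so the filter set the direction of their differences. Their ESC levels lay below background, so the sizes of these differences are not measured folds. Krt42 was called lower on both scalings and Krt31 on the quantile scaling alone, where 25.2% of all genes were called lower. Krt42 was above background on all 10 ESC and EB arrays of the product and on 0 adult arrays, at 2.92 and 1.94. It entered the test through ESC and EB, so the filter set the direction of its difference, and its size is not a measured fold. Cdh1 was at 3.60 and 3.73 in adult tissue, against 7.54 to 8.51 in EB of the 12-array product. The epithelium list summed to 610.7 and 653.8 in adult tissue, below all ESC and EB samples of the product. Its genes did not all go that way. Of 9 tested, 5 were called lower than in ESC and 1 higher, where 25.2% and 26.7% of all genes were. That 1 was Cldn3, at 7.9 and 7.83 in adult tissue against 5.37 in ESC. The feeder fibroblast list summed to 4928 and 4244, next to the 4441 of ESC. The part of these lists in the keratin levels was not tested.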

How the data were processed

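Per the file headers, scanner software 4.1.0.29054 wrote 1 intensity per spot in the deposited exports, beside a column that the authors normalized to each array's median. The raw intensity column has values below 0, so background was already subtracted and the planned normexp step was not applied. Raw intensities, without spots marked contaminated, irregular or masked, were quantile-normalized within each product over all its arrays, raised to the median negative control (3.49 and 5.27 on the 12-array and 6-array products, or 1.80 and 2.40 as log2), put on the log2 scale and averaged over the arrays of a sample (avearrays). Arrays whose titles share the group and the first number were read as 1 sample. The deposited matrix matched the exports for the 12-array ESC and EB arrays only, so exports were used throughout.

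Of 19758 shared gene probes, 15807 had 1 gene symbol, 60 several and 3891 none. Probes above background on every array of at least 1 group were kept, and a gene was represented by its probe of highest mean. Tests used limma 3.58.1 in R 4.3.3 (Benjamini-Hochberg over all genes tested, threshold 0.05). The EB fit had 8 samples, the product as a term and 4 residual degrees of freedom, and the adult fit had the 7 samples of the 12-array product and 3. The fits were tested on simulated data.

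The members and lists were chosen with earlier results of these data known. Named genes are the members, the 3 genes most correlated with each, up to 3 called genes with the smallest p per list, the tested other keratins, Vim and Cdh1. Other genes named with values, including Pkp2, Klf4, Klf5, Grhl2, Jup, Dsg2, Gata3, Pou5f1, Spcs2 and the junction and trophectoderm genes listed as below background, were chosen after their values were seen. The text leaves out some of the feeder genes that the rule names, and 1 of the genes most correlated with a member is not reported here. Alternatives covered scaling, floor, filter, probe choice, flagged spots, product, replicates and scan batch.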

Additional observations from a re-analysis of the deposited data

Results flagged for a closer look

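Krt35, a hair keratin with a probe on the 6-array product alone, was outside the comparisons because that product has 1 sample a group. Its level was 5.86 in ESC, 5.95 in 3-day EB and 6.29 in 7-day EB, 0.43 above ESC at 7 days, and it was above background on all 6 arrays. No group holds 4 samples, so no sample was tested as standing apart from its group.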

How the results depend on the processing

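Krt7 in adult tissue was past the threshold against ESC and 3-day EB in every alternative run, at log2 differences of 3.07 to 4.12 and 2.03 to 3.06, but the comparison with ESC rests on 1 ESC sample that no alternative replaced. No called difference changed sign in any alternative. The calls in EB were few and moved with the processing. At 3 days the 1 call became 0 with a constant of 16 in place of the floor, with no filter on dim probes, on the 12-array product alone, with the scan batch as a term and with the first array of ESC replicate 2 set aside. At 7 days the 1 call became 3 with the constant of 16 and 0 on the 12-array product alone. With the 12-array EB samples numbered 2 set aside, chosen after seeing the data, there were 3 calls at 3 days, 3 at 7 days and 1 between the days. Leaving out each replicate gave 0 to 2 calls at 3 days, 0 to 3 at 7 days and 0 to 1 between the days. In adult tissue it gave 1 to 2 calls against ESC, 1 to 2 against 3-day EB and 0 to 2 against 7-day EB. Median centring, the authors' normalized column and the deposited matrix (added after seeing the data) each gave 2 calls against ESC, where Krt19 joined, and 1 against each EB day, where Krt18 dropped out. With no filter there was 1 call against 3-day EB. The cause of these moves was not tested. On the 6-array product alone there was no test and so no count. Scan batch could not be fitted for adult tissue.

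Replicate numbers are not stated to pair samples, and 3-day and 7-day EB share only the pairs 1 and 2 on the 12-array product, whose deviations correlated at 0.319. With the replicate block there were 2 calls at 3 days (Krt18 and Krt19, limma adjusted p = 0.0205 and 0.0306, with Krt7 at 0.176), 3 at 7 days and 2 for adult tissue against ESC. It changed no other count of calls. Over all genes the block moved the calls from 188 to 67 at 3 days, from 326 to 153 at 7 days and from 7 to 12 between the days. The count over all genes also moved by over 1.5 times elsewhere. At 3 days it was 81 with no filter and 0 on the 12-array product alone, and at 7 days it was 143, 1 and, with the scan batch, 86. Between the days it was 0 in most alternatives, and with the samples numbered 2 set aside the 3 counts were 527, 708 and 295. Leaving out each replicate gave 1 to 301 genes at 3 days, 23 to 494 at 7 days and 0 to 180 between the days. Krt8 is limited by signal, below background on all 12 arrays of a product and so in none of the main tests. It entered the fits with no filter and, for EB, without ESC replicate 1.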

Other observations

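An expressed sequence probe whose description names a similarity to cytokeratin 19, GE110374, was kept apart from Krt19 because a similarity does not name the gene. Its raw intensity on the 6-array product was 32.3 and 4.29 on the ESC arrays, 41.8 and 58.6 on the 3-day arrays and 84.3 and 101.1 on the 7-day arrays. On the 12-array product it was below background on all 10 ESC and EB arrays, where the Krt19 probe was above it on all 10.

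Elf3, an ETS factor of epithelial cells, was above background on 1 of the 10 ESC and EB arrays of the 12-array product and on all 6 of the other. It read 6.97 in ESC, 8.72 in 3-day EB and 9.03 in 7-day EB there. Perp, a desmosome protein, read 7.34, 9.10 and 8.55 in the same samples and was below background on those 10 arrays. Other genes of the same lists went the other way on these arrays, with Evpl at 7.56, 7.58 and 6.36, Fosl1 at 9.20, 5.69 and 5.06 and Klf4 at 11.36, 11.03 and 10.77. With 1 sample a group, none of these differences has a test, and the genes were chosen after their values were seen.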
